A study of Mus musculus with 11 samples.

Results

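Genes that act in mitosis were followed in the rectal mucosa of mice whose intestinal epithelium is meant to lose integrin α6. The list names 48 genes, among them cyclins and kinases of mitotic entry, checkpoint and kinetochore proteins, spindle motors, cytokinesis proteins and condensin subunits. Each gene was read from the transcript cluster whose annotated symbol is exactly that gene and no other, taking the cluster with the highest mean where there were several. In this way 47 of the 48 were measured, of 19946 genes in all, and Ccnb1 was not analysed here. RNA came from 11 mice, 1 array per mouse, on Affymetrix Mouse Gene 1.0 ST arrays, and the deposited values are on the log2 scale, so that a difference of 1 is a 2-fold change. The mutant tamoxifen group held 4 α6ΔIEC-TAM mutant mice (1 male), in which tamoxifen is given to induce the deletion of Itga6, the gene of integrin α6. The control tamoxifen group held 3 mice labelled wild type (2 male), which received the same tamoxifen. The mutant NaCl group held 4 α6ΔIEC-TAM mutant mice (1 male) given NaCl in place of the drug, so these carry the mutant alleles without the inducer. Gavage began at 8 weeks of age, with 2 doses of 10 mg of tamoxifen per day, in 0.9% NaCl, every other day during 5 days. All mice were analysed 15 days after the start of gavage, at 10 weeks. What drives the recombination in these mice, and whether the controls carry any of its parts, is not given in the sources used here.

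Mitosis separates the copied chromosomes into daughter nuclei, and cytokinesis then divides the cell. Cyclin-dependent kinase and the Aurora and Polo kinases start the process, the kinetochores tie chromosomes to spindle microtubules, and the spindle assembly checkpoint holds back the anaphase-promoting complex until every chromosome is attached. Most of these genes are transcribed late in the cell cycle, under the MuvB complex with B-Myb and FOXM1 and the CCAAT-binding factor NF-Y, and are low in cells that have left the cycle. In the large intestine dividing cells lie in the lower part of the crypts, while the cells nearer the surface are differentiated and no longer divide.

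The arrays were alike in scale, with medians of 7.29 to 7.35, and arrays of a group correlated at 0.988 to 0.997. Itga6 itself was higher, not lower, in the arrays labelled mutant tamoxifen (11.75 to 11.93) than in the control tamoxifen arrays (11.15 to 11.52). By limma the difference was 0.42 (SE 0.0957, adjusted p = 0.00950). It was also higher than in the mutant NaCl arrays (11.28 to 11.49), which carry the same alleles (limma, 0.41, SE 0.0831, adjusted p = 0.00530). Its probes may lie outside the deleted exons, whose place is not given in the sources used here. This was not tested, and the higher signal in the group meant to lose the gene stays unexplained. The signal was not used to check the labels, which name the groups in the text. P-values weigh a difference against the spread between these mice, by a variance that the model shares over all groups. Where groups spread unequally, as for the mitosis genes, this variance can understate the error of comparisons with the wider group. In bulk tissue, more dividing cells and more RNA per dividing cell cannot be told apart, and likewise fewer cells and less RNA.

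Many promoters of the mitosis genes held sequence elements of MuvB and NF-Y. Most such genes are transcribed under these factors, so the counts describe this class of genes and use no array value. The RefSeq promoter table of the mouse assembly GRCm38.p6 held 41 promoters for 39 of the 47 measured genes, each with 250 bases before and 50 bases after a start site. Tpx2, Kif20a, Aurkb, Foxm1, Incenp, Ccna2, Spc24 and Smc4 had no entry, and Ect2 and Prc1 had 2 overlapping entries each. Each was searched on both strands for TTTGAA, the core of the cell cycle homology region that MuvB recognises, and for CCAAT, the box that NF-Y recognises; the motifs can share at most 1 base. The promoters below are those of the mitotic kinase Cdk1, the cyclin Ccnb2, topoisomerase Top2a and the ubiquitin-conjugating enzyme Ube2c, which hold both motifs, and of Bub1, which had the largest difference of all members and holds no TTTGAA. Each runs 5′ to 3′ along the gene and ends at the base before the start site. Capitals mark TTTGAA or its reverse complement TTCAAA, and CCAAT or its reverse complement ATTGG. Cdk1 is at chr10:69352913-69353162, minus strand, Ccnb2 at chr9:70421555-70421804, minus strand, Top2a at chr11:99024190-99024439, minus strand, Bub1 at chr2:127831860-127832109, minus strand, and Ube2c at chr2:164769679-164769928, plus strand.
Cdk1: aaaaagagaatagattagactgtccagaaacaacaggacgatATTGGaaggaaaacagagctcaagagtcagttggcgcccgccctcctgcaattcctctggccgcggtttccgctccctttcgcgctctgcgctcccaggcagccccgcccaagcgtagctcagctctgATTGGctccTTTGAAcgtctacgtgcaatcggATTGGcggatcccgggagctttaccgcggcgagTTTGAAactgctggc
Ccnb2: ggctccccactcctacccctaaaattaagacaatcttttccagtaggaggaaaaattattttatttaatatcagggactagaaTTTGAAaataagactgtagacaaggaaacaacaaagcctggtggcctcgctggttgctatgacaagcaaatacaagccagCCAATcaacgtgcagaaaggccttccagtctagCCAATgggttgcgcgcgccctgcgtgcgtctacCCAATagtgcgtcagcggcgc
Top2a: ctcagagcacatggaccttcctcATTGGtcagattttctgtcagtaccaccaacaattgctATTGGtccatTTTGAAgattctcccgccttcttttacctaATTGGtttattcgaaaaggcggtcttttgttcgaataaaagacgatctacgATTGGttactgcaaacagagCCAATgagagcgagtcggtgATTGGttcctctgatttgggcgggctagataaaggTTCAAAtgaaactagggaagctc
Bub1: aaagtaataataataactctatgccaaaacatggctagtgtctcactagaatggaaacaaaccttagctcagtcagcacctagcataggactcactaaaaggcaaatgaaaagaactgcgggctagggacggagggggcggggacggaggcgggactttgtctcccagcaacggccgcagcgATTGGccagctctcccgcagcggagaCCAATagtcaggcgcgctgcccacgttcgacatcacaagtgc
Ube2c: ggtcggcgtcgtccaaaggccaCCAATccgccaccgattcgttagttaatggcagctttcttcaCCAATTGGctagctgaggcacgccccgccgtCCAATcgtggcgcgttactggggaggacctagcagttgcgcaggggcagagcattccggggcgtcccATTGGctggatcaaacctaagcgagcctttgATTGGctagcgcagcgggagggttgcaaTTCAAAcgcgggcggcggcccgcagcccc

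In these 250 bases, Top2a and Ube2c each held 6 matches to CCAAT. In Ube2c 2 of the 6 overlap, on opposite strands. Cdk1 held 3 matches to CCAAT and 2 to TTTGAA, Ccnb2 held 3 and 1, and Bub1 held 2 matches to CCAAT and 0 to TTTGAA. Over all 41 promoters, 30 (73.2%) held CCAAT in the 250 bases before the start site, against 33.8% of the 32851 promoters in the table. Matches at 2 or more places were found in 19 (46.3%), against 10.1%. TTTGAA was found before the start site in 17 promoters (41.5%, exact 95% binomial interval 26.3% to 57.9%), against 16.0% of all. The interval takes promoters as independent, although the entries of Ect2 and those of Prc1 overlap and are counted separately. In a further 15 promoters TTTGAA lay only after the start site or, in an entry of Prc1, across it. Over the whole 300 bases 32 (78.0%) therefore held it, against 17.9%. Between 60 bases before and 50 bases after the start site it was found in 29 (70.7%), against 5.5% of all promoters. Both motifs stood together in 28 promoters (68.3%) over the 300 bases, against 6.95%. A match describes the letters and was not tested as a binding site.

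The 30 bases around the TTTGAA nearest the start site place the motif in its setting in genes of different roles. They are given for mitotic entry (Cdk1, chr10:69352910-69352939, minus strand), the checkpoint (Ttk, chr9:83834684-83834713, plus strand), the centromere (Cenpa, chr5:30666890-30666919, plus strand), the spindle (Kif4, chrX:100626072-100626101, plus strand), cytokinesis (Kif23, chr9:61946780-61946809, minus strand) and condensin (Smc2, chr4:52439235-52439264, plus strand). Except for Cenpa, each is the gene with the smallest p of its role. Among the kinetochore genes Spc24 had the smallest p but no promoter entry, and Cenpe and Nuf2, which also had a smaller p than Cenpa, hold no TTTGAA.
Cdk1: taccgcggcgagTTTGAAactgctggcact
Ttk: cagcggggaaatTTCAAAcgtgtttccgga
Cenpa: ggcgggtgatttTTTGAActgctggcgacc
Kif4: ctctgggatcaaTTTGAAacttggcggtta
Kif23: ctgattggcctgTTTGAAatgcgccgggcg
Smc2: ctcgcgccgaaaTTCAAAggaacagttccg

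The motif began 15 bases before the start site in Cdk1. It began at base 8 after the start in Ttk, base 17 in Cenpa, base 20 in Kif4, base 3 in Kif23 and base 27 in Smc2. In Ttk and Smc2 the match was on the opposite strand and therefore reads TTCAAA. No TTTGAA was found within the 300 bases of Birc5, Bub1, Cenpe, Mad2l1, Melk, Ncaph, Nuf2, Nusap1 and Pttg1, which says only that these letters are not in this window. Among these 9 are Pttg1, the member with the smallest difference between mutant and control tamoxifen (0.21), and Bub1, the one with the largest (1.26).

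**Figure D1:**
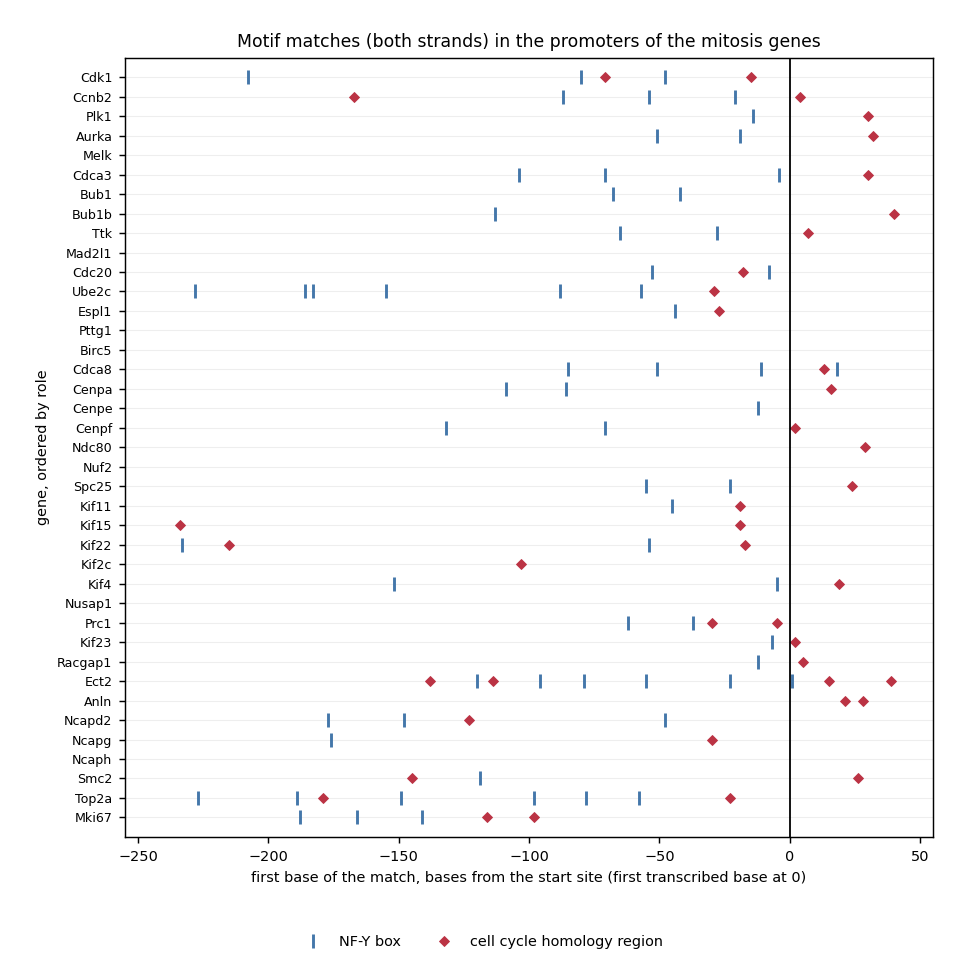
Positions of matches to the cell cycle homology region (diamonds) and the NF-Y box (bars) in the RefSeq promoters of 39 mitosis genes. The horizontal axis gives the position of a match's first base in bases from the start site, with the first transcribed base at 0, and each line is a gene, ordered by role. Diamonds gather around the start site: 29 of 41 promoters held one from 60 bases before to 50 bases after it.

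Mutant and control mice, both given tamoxifen, answer what differs with the genotype once the drug is the same. Mitosis genes were higher in the mutants in nearly the whole list: 46 of 47 rose and 0 fell. The median difference was 0.81, with a range from 0.21 for Pttg1 to 1.26 for Bub1. Differences above 1.5-fold were seen for 40 genes and above 2-fold for 7, against 573 and 143 of all 19946 genes. The 7 were Bub1, Mad2l1, Kif4, Prc1, Kif23, Anln and Ncapg. By the test that called 46 members higher, 12.9% of all genes were higher and 11.8% lower, and their median difference was -0.02. In 45 of the 47 genes every mutant array lay above every control array, which 17.3% of all genes did; Pttg1 and Nusap1 were the exceptions. The test was limma's moderated test with a term for sex, fitted on all genes and arrays with Benjamini-Hochberg adjustment and a threshold of 0.05, so fitted differences can depart slightly from those of the plain means. Without control tamoxifen array 2 the count was 38, as Ccnb2, Ube2c, Espl1, Cenpf, Ndc80, Kif2c, Nusap1 and Ncapd2 no longer passed. Without control tamoxifen array 3 Pttg1 passed and Espl1 did not.

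**Figure D2:**
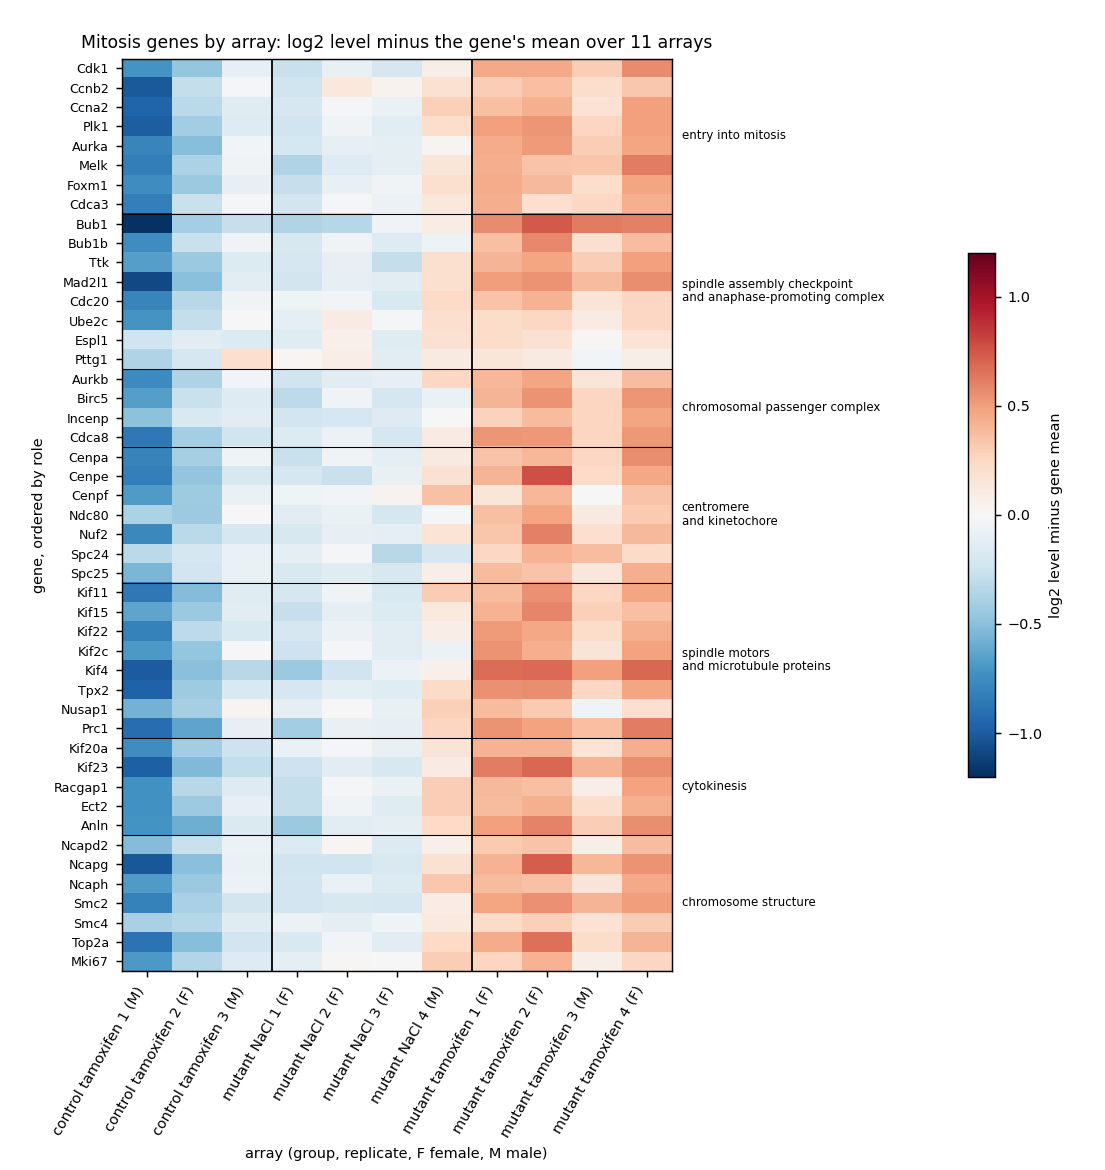
Log2 level of each of the 47 measured mitosis genes in each of the 11 arrays, minus the gene's mean over the arrays; red is above and blue below that mean. Rows are genes ordered by role and columns are arrays by group, with the sex of the mouse. The 4 mutant tamoxifen columns are red almost throughout, and control tamoxifen array 1 is the lowest array for 45 of the 47 genes.

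All 8 measured genes of mitotic entry rose. Cdk1, the kinase that drives entry into mitosis, stood at 10.55, 10.55, 10.39 and 10.66 in the mutant tamoxifen arrays and at 9.37, 9.63 and 9.99 in the control tamoxifen arrays. The mutant NaCl arrays stood at 9.82, 10.00, 9.89 and 10.16 and overlapped the controls. The mutant tamoxifen arrays were above all others. Their mean of 10.54 ± 0.108 (SD, n = 4) was 1.85-fold above the control mean of 9.66 ± 0.310 (SD, n = 3; limma, log2 difference 0.89, SE 0.141, adjusted p = 0.00170). Ccnb2, a B-type cyclin, had the largest p of this role. Its levels were 11.68, 11.75, 11.60 and 11.71 in mutant tamoxifen, 10.38, 11.10 and 11.36 in control tamoxifen, and 11.15, 11.51, 11.43 and 11.57 in mutant NaCl. Control array 1 lay far below the others, and the mutant tamoxifen arrays lay above all others, by a narrow margin over mutant NaCl (limma, 0.72, SE 0.200, adjusted p = 0.0241). The other differences were 0.84 for the cyclin Ccna2, 0.96 for the Polo-like kinase Plk1 and 0.89 for Aurka, the Aurora kinase of the spindle poles. They were 0.87 for the kinase Melk, 0.83 for Foxm1, a transcription factor of mitotic genes, and 0.69 for Cdca3, which helps to trigger entry.

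The spindle assembly checkpoint and the anaphase-promoting complex held both extremes of the list, and 7 of 8 genes rose. Bub1, a checkpoint kinase at the kinetochore, had levels of 9.18, 9.35, 9.24 and 9.22 in mutant tamoxifen against 7.43, 8.21 and 8.34 in control tamoxifen and 8.26, 8.27, 8.57 and 8.71 in mutant NaCl. The mutant tamoxifen arrays were tightly grouped, while control array 1 lay far below the others. The fold was 2.40 (limma, log2 difference 1.26, SE 0.206, adjusted p = 0.00197). Ttk, the kinase that starts the checkpoint, had the smallest p of this role. It stood at 7.91, 7.98, 7.80 and 8.00 in mutant tamoxifen, 6.84, 7.06 and 7.34 in control tamoxifen, and 7.30, 7.41, 7.22 and 7.70 in mutant NaCl (limma, mutant minus control tamoxifen 0.88, SE 0.137, adjusted p = 0.00158). All 4 mutant tamoxifen arrays exceeded every other array. Mad2l1, which holds back Cdc20, was higher by 1.08, the checkpoint protein Bub1b by 0.69, Cdc20, the activator of the complex, by 0.69, and Ube2c, its ubiquitin-conjugating enzyme, by 0.55.

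Espl1 and Pttg1, which act in the release of sister chromatids, showed the smallest differences of the list. Whether this step as such differs from the others was not tested. Espl1, the separase that cuts cohesin, rose by 0.33 (limma, adjusted p = 0.0283), a call lost under 7 of 22 alternative settings. Pttg1, the securin that keeps separase inactive, did not pass. Its levels were 9.36, 9.32, 9.18 and 9.28 in mutant tamoxifen, 8.85, 9.01 and 9.41 in control tamoxifen, and 9.24, 9.29, 9.08 and 9.32 in mutant NaCl. Control array 3 was the highest of all 11, so the groups overlapped (limma, 0.21, SE 0.126, 95% interval -0.07 to 0.49, adjusted p = 0.262).

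Each gene of the chromosomal passenger complex, which corrects faulty attachments and later guides cytokinesis, rose. Cdca8, the borealin subunit, had levels of 9.05, 9.04, 8.78 and 9.04 in mutant tamoxifen, 7.66, 8.11 and 8.28 in control tamoxifen, and 8.35, 8.45, 8.32 and 8.62 in mutant NaCl. The 3 groups did not overlap at any point (limma, mutant minus control tamoxifen 0.94, SE 0.146, adjusted p = 0.00152). Aurkb, the kinase of the complex, stood at 10.64, 10.71, 10.39 and 10.61, at 9.48, 9.87 and 10.21, and at 10.00, 10.10, 10.14 and 10.49 in the same order of groups. Here mutant NaCl array 4 reached into the mutant tamoxifen range, while the controls stayed below it (limma, 0.75, SE 0.174, adjusted p = 0.0109). The survivin gene Birc5 was higher by 0.75 and the scaffold Incenp by 0.61.

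All 7 genes of the centromere and kinetochore rose. Spc24, a subunit of the NDC80 complex that binds microtubules, had levels of 8.35, 8.52, 8.47 and 8.33 in mutant tamoxifen, 7.78, 7.90 and 8.02 in control tamoxifen, and 7.98, 8.08, 7.77 and 7.90 in mutant NaCl. For this gene the mutant NaCl arrays overlapped the controls (limma, mutant minus control tamoxifen 0.52, SE 0.0937, adjusted p = 0.00315). Its partners Ndc80, Nuf2 and Spc25 were higher by 0.59, 0.80 and 0.59. Cenpf, a large protein of the outer kinetochore, stood at 8.55, 8.81, 8.40 and 8.75 in mutant tamoxifen, 7.73, 7.98 and 8.33 in control tamoxifen, and 8.36, 8.38, 8.45 and 8.76 in mutant NaCl. Both mutant groups covered nearly the same range, above all controls (limma, 0.63, SE 0.162, adjusted p = 0.0176). Cenpa, the histone H3 variant that marks the centromere, was higher by 0.81 and Cenpe, a kinetochore motor, by 0.97.

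All 8 spindle genes rose. Kif4, a motor that travels along chromosome arms, had levels of 8.59, 8.60, 8.41 and 8.61 in mutant tamoxifen, 6.92, 7.42 and 7.59 in control tamoxifen, and 7.47, 7.68, 7.85 and 7.98 in mutant NaCl. Even the lowest mutant tamoxifen array was well above the highest other array. The fold was 2.37 (limma, log2 difference 1.24, SE 0.169, adjusted p = 0.000843). Nusap1, a microtubule bundler, was the least separated, at 9.96, 9.90, 9.54 and 9.78, at 9.02, 9.19 and 9.62, and at 9.47, 9.58, 9.50 and 9.87 in mutant tamoxifen, control tamoxifen and mutant NaCl. Control array 3 lay above mutant tamoxifen array 3 (limma, 0.54, SE 0.163, adjusted p = 0.0339), and this call was lost under 8 of 23. Prc1, which bundles the midzone of the spindle, was higher by 1.10 and Tpx2, an activator of Aurora A, by 0.98. The motor Kif11, which pushes the poles apart, was higher by 0.95 and its partner Kif15 by 0.84. Kif22, another motor of chromosome arms, was higher by 0.81 and Kif2c, which takes microtubules apart, by 0.76.

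In cytokinesis all 5 genes rose. Kif23, the motor of the centralspindlin complex, had the smallest p of the whole list. Its levels were 9.88, 9.96, 9.68 and 9.83 in mutant tamoxifen, 8.29, 8.74 and 8.97 in control tamoxifen, and 9.02, 9.13, 9.08 and 9.37 in mutant NaCl. As for Cdca8, the groups formed 3 separate ranges, and the fold between mutant and control tamoxifen was 2.26 (limma, log2 difference 1.17, SE 0.155, adjusted p = 0.000744). Racgap1, its partner in centralspindlin, stood at 9.66, 9.63, 9.35 and 9.75, at 8.54, 8.94 and 9.11, and at 8.98, 9.25, 9.19 and 9.56 in the same order. Mutant NaCl array 4 again lay within the mutant tamoxifen range (limma, 0.73, SE 0.169, adjusted p = 0.0107). Anln, the anillin scaffold of the contractile ring, was higher by 1.03, Ect2, which activates RhoA at the cell equator, by 0.82, and the motor Kif20a by 0.81.

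Each of the 7 genes of chromosome structure rose. Smc2, a core subunit of condensin, had levels of 9.44, 9.52, 9.38 and 9.47 in mutant tamoxifen, 8.16, 8.58 and 8.75 in control tamoxifen, and 8.74, 8.78, 8.77 and 9.06 in mutant NaCl. Mutant tamoxifen stood clear of both other groups, which met at 8.74 to 8.75 (limma, mutant minus control tamoxifen 0.97, SE 0.136, adjusted p = 0.000971). Ncapd2, a regulatory subunit of condensin I, stood at 9.63, 9.66, 9.39 and 9.69, at 8.80, 9.05 and 9.25, and at 9.15, 9.34, 9.15 and 9.38 in the same order (limma, 0.54, SE 0.121, adjusted p = 0.00925). The lowest mutant tamoxifen array was only just above the highest mutant NaCl array. The other condensin genes Ncapg, Ncaph and Smc4 were higher by 1.08, 0.77 and 0.56. Top2a, which untangles the sister DNAs, was higher by 0.98 and Mki67, the gene of the Ki-67 antigen that coats mitotic chromosomes, by 0.65.

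Tamoxifen against NaCl within the mutants asks what differs with the inducing drug when the alleles are the same. This comparison shares the mutant tamoxifen arrays with the one above. Of the 47 genes, 32 rose and 0 fell, with a median difference of 0.46 (range 0.06 to 0.81). Among all genes 12.5% were higher and 10.7% lower, with a median of -0.01. In 33 of the 47 every mutant tamoxifen array lay above every mutant NaCl array, against 14.2% of all genes. Kif4 differed most, by 0.81 (limma, SE 0.147, adjusted p = 0.00320), followed by Bub1 at 0.79 (SE 0.179, adjusted p = 0.00946) and Kif23 at 0.69 (SE 0.135, adjusted p = 0.00459). Spc24 had the smallest p, with a difference of 0.48 (SE 0.0814, adjusted p = 0.00225) that was close to its difference from the controls.

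By role, 6 of 7 kinetochore genes, 6 of 8 spindle genes, 5 of 7 chromosome structure genes, 5 of 8 entry genes, 3 of 4 passenger genes, 3 of 5 cytokinesis genes and 4 of 8 checkpoint genes passed. The 15 that did not were Ccnb2, Ccna2, Cdca3, Cdc20, Ube2c, Espl1, Pttg1, Aurkb, Cenpf, Kif11, Nusap1, Racgap1, Ect2, Ncaph and Mki67. Mki67, the usual marker of dividing cells, stood at 11.51, 11.67, 11.32 and 11.50 in mutant tamoxifen, 11.14, 11.26, 11.25 and 11.54 in mutant NaCl, and 10.56, 10.90 and 11.09 in control tamoxifen. Mutant NaCl array 4 lay above 3 of the 4 mutant tamoxifen arrays, and both mutant groups lay above every control (limma, mutant tamoxifen minus mutant NaCl 0.20, SE 0.122, interval -0.07 to 0.47, adjusted p = 0.285). The count depended on single arrays. It was 20, 19 and 19 without mutant tamoxifen array 1, 2 or 4 and 16, 18 and 18 without mutant NaCl array 1, 2 or 3, while the median difference stayed between 0.42 and 0.56 without any array.

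Mutant NaCl and control tamoxifen mice differ in both genotype and drug, so these cannot be told apart here. None of the 47 genes passed in this comparison, and 0% of all genes were called higher and 0% lower by limma. All 47 differences were above 0, as were those of 9054 of the 19946 genes. They ran from 0.04 for Spc24 to 0.52 for Top2a and Mad2l1, with a median of 0.38 against -0.01 over all genes. An unadjusted p under 0.05 was given by limma for 31 of the 47 and for 1625 of the 19946 genes. The members vary together between animals, so these counts are not separate results. In 8 genes (Cdca8, Cenpf, Nuf2, Kif20a, Kif23, Smc4, Top2a and Mki67) every mutant NaCl array lay above every control, which 2.82% of all genes did. Top2a is one of these 8 and had, with Mad2l1, the largest difference of the list. It stood at 9.03, 9.41 and 9.69 in control tamoxifen, 9.73, 9.88, 9.78 and 10.16 in mutant NaCl, and 10.36, 10.58, 10.14 and 10.32 in mutant tamoxifen. The groups formed a series, with mutant NaCl array 4 just above the lowest mutant tamoxifen array. The median of 0.38 fell to 0.22 without control tamoxifen array 1 and to 0.19 without mutant NaCl array 4.

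**Figure D3:**
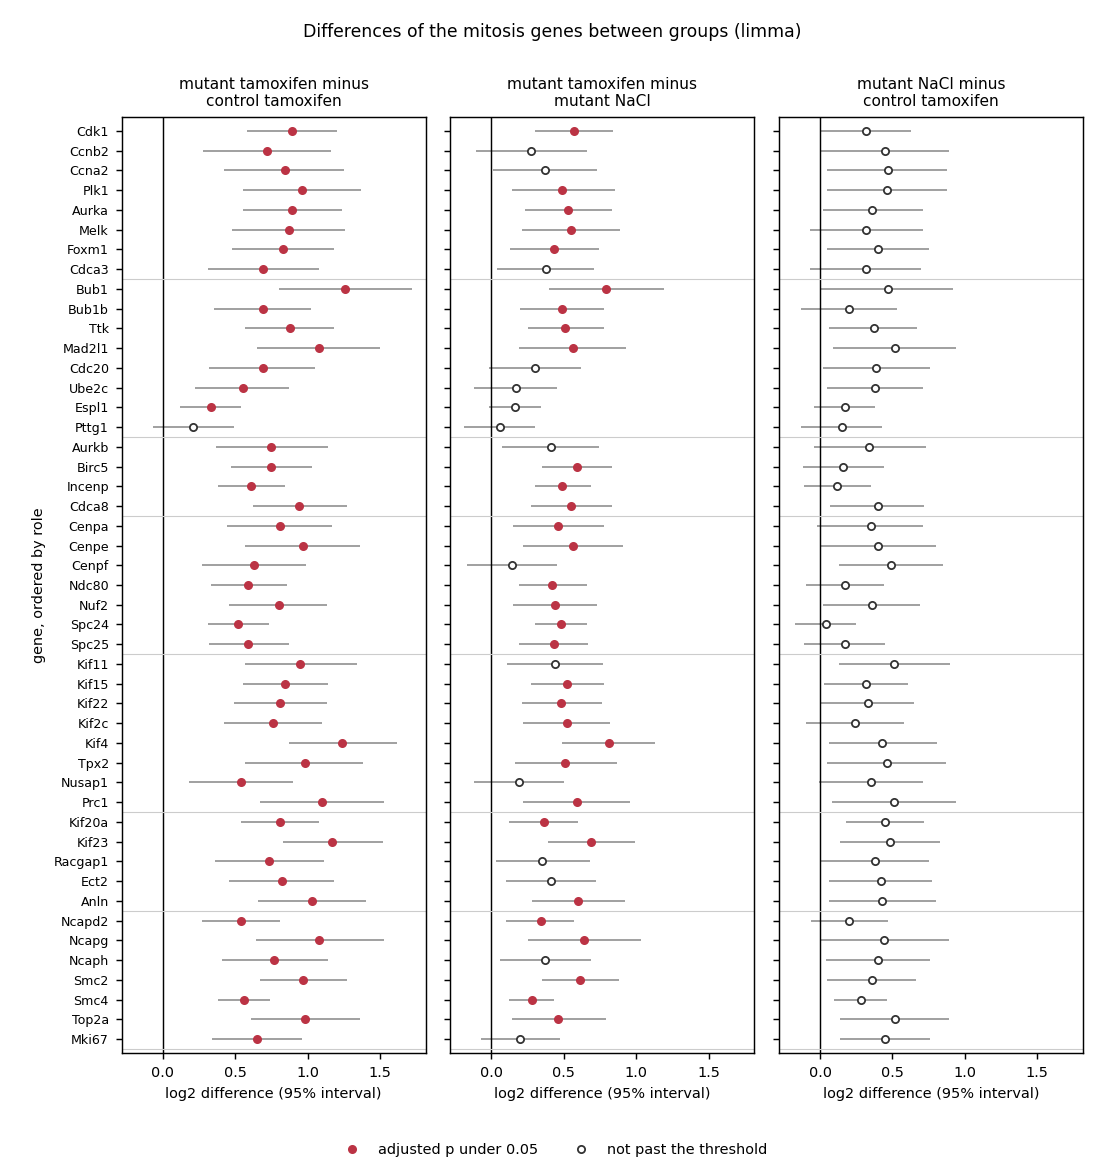
Log2 difference of each of the 47 mitosis genes in the 3 comparisons, with its 95% interval from limma; filled points have an adjusted p under 0.05. Filled points number 46 for mutant against control tamoxifen, 32 for mutant tamoxifen against mutant NaCl and 0 for mutant NaCl against control tamoxifen, where all points still lie right of 0.

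The members moved as a block from animal to animal, also within groups. Their mean level was 9.39, 9.46, 9.22 and 9.43 in the mutant tamoxifen arrays (mean 9.37 ± 0.106, SD, n = 4), 8.25, 8.61 and 8.88 in the control tamoxifen arrays (8.58 ± 0.316, SD, n = 3) and 8.78, 8.92, 8.87 and 9.14 in the mutant NaCl arrays (8.93 ± 0.155, SD, n = 4). The groups were ordered from control tamoxifen through mutant NaCl to mutant tamoxifen, and the highest control array lay within the mutant NaCl range. For all 47 genes the mutant NaCl mean lay between the other group means, which held for 22.1% of all genes. In 33 genes every mutant tamoxifen array was above every other array (70.2%, against 12.0% of all genes).

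Control tamoxifen array 1 was the lowest of all 11 arrays for 45 members (95.7%), against 13.8% of all genes. The control arrays stood in the same order, array 1 lowest and array 3 highest, for 45 members, against 17.6% of all genes. Mutant tamoxifen array 3, from the only male of that group, was the lowest of its group for 44 members (93.6%, against 18.0%). Mutant NaCl array 4, also a male, was the highest of its group for 43 (91.5%, against 26.2%). The spread was widest among the controls, with a median SD of 0.318 over the members against 0.0755 over all genes. It was 0.171 against 0.0780 in mutant NaCl and 0.128 against 0.0746 in mutant tamoxifen. The 2 male controls were the lowest and the highest of their group, and the part of sex in this spread was not tested beyond the sex term of the model.

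Further mitotic genes that are not on the list were also measured. They were chosen with earlier results of these data known, so they are no separate test. Of 67, 55 rose, 0 fell and 12 did not pass between mutant and control tamoxifen (median 0.59, range -0.11 to 1.05), beside 12.9% of all genes that rose. Against mutant NaCl 42 rose and 25 did not pass (median 0.36), beside 12.5% of all genes that rose. With arrays centred on the epithelial list 25 rose against mutant NaCl (median 0.28). The 3 with the smallest p were the centromere genes Cenpi (limma, 0.72, SE 0.0722, adjusted p = 0.000177) and Cenpp (0.53, SE 0.0628, adjusted p = 0.000426) and Arhgap11a, a partner of anillin in the contractile ring (0.78, SE 0.0971, adjusted p = 0.000561). Cenpi stood at 6.42, 6.53, 6.42 and 6.43 in mutant tamoxifen, 5.61, 5.72 and 5.91 in control tamoxifen, and 5.93, 5.91, 5.91 and 6.05 in mutant NaCl. The core of the anaphase-promoting complex and cohesin are not limited to dividing cells. Of their 21 genes 8 rose and 1 fell against control tamoxifen, with a median of 0.15, beside 12.9% and 11.8% of all genes, and no difference reached 1.5-fold. With arrays centred on the epithelial list 3 rose and 1 fell (median 0.07), and against mutant NaCl the count that rose went from 9 to 1. The cohesin genes Pds5a (0.28, adjusted p = 0.00467), Stag1 (0.29, adjusted p = 0.00545) and Smc1a (0.24, adjusted p = 0.00637) had the smallest p by limma. Anapc2, the cullin subunit of the complex, went the other way (-0.25, adjusted p = 0.00932).

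DNA replication genes rose in 34 of 36 cases against control tamoxifen (median 0.60), beside 12.9% of all genes. Against mutant NaCl 33 rose (median 0.51), beside 12.5% of all genes. Their median for mutant NaCl minus control tamoxifen was 0.15. Rrm2, the ribonucleotide reductase subunit that supplies DNA precursors, stood at 9.95, 9.92, 10.15 and 10.05 in mutant tamoxifen, 8.41, 8.74 and 9.08 in control tamoxifen, and 9.42, 9.12, 9.05 and 9.15 in mutant NaCl. The mutant tamoxifen arrays were above all others (limma, mutant minus control tamoxifen 1.29, SE 0.150, adjusted p = 0.000386). The primase subunit Prim2 (0.85, adjusted p = 0.000548) and the origin-binding protein gene Orc6 (0.57, adjusted p = 0.000645) followed by limma. Unlike in the mitosis genes, mutant tamoxifen array 3 had the highest mean of its group for the replication list, at 9.18 against 9.05 to 9.09.

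Of 20 transcription factors of cell cycle genes 10 rose and 2 fell, with a median of 0.23. Of all genes 12.9% rose and 11.8% fell, so the number that fell does not stand out. E2f2, an E2F factor that activates genes of the cell cycle, stood at 8.96, 8.83, 9.08 and 9.08 in mutant tamoxifen, 7.72, 8.00 and 7.95 in control tamoxifen, and 8.04, 7.89, 8.10 and 8.10 in mutant NaCl. The last 2 groups overlapped and lay clearly below the first (limma, mutant minus control tamoxifen 1.11, SE 0.0966, adjusted p = 8.19e-05). The MuvB subunits named here did not move together. Lin54, the subunit that contacts the cell cycle homology region, rose by 0.56 (adjusted p = 0.000212) and Lin9 by 0.64 (adjusted p = 0.000998), whereas the differences were -0.32 for Lin52 (adjusted p = 0.00617) and -0.29 for Lin37 (adjusted p = 0.0111), all by limma. With arrays centred on the epithelial list, 7 of the 20 rose and 2 fell.

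Among 18 genes that brake division 2 rose and 3 fell against control tamoxifen, with a median of 0.00. Of all genes, 12.9% rose and 11.8% fell, so the split of this list does not stand out. Cdkn2b, an inhibitor of the kinases that start the cycle, stood at 8.68, 8.73, 8.52 and 8.64 in mutant tamoxifen, 9.31, 9.18 and 9.27 in control tamoxifen, and 8.88, 9.09, 8.90 and 8.99 in mutant NaCl, so that the groups formed 3 separate ranges (limma, -0.61, SE 0.0771, adjusted p = 0.000577). The antiproliferative gene Btg1 (-0.49, adjusted p = 0.00110) and the inhibitor Cdkn1b (-0.19, adjusted p = 0.0183) fell as well by limma. The genes that rose were Pkmyt1, which inhibits Cdk1, by 0.25 (adjusted p = 0.0445) and the inhibitor Cdkn2c by 0.28 (adjusted p = 0.0485). Both lost their call by limma when arrays were quantile-normalised again, where 0 of the list rose and 4 fell.

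Markers of the cells in the samples were measured beside the mitosis genes. The mean of the epithelial identity list was nearly level, at 12.00 to 12.14 in mutant tamoxifen, 11.93 to 12.02 in control tamoxifen and 11.94 to 12.01 in mutant NaCl. Its members went both ways: of 15, 2 rose and 1 fell against control tamoxifen (range -0.25 to 0.62), and 4 rose and 1 fell against mutant NaCl (range -0.28 to 0.83). Of all genes, 12.9% rose and 11.8% fell against control tamoxifen, and 12.5% and 10.7% against mutant NaCl. With each array centred on that list, 44 of the 47 mitosis genes still rose against control tamoxifen (median 0.73) and 23 against mutant NaCl (median 0.39). That centring turned the split over all genes from 2570 higher and 2345 lower to 1646 and 4092 in the comparison with control tamoxifen, and from 2499 and 2136 to 1499 and 3281 against mutant NaCl. Differentiated colonocyte genes were lower in mutant tamoxifen (means 10.76 to 11.06) than in control tamoxifen (11.65 to 11.94) and mutant NaCl (11.52 to 11.64), with 7 of 12 fallen and 2 risen against the controls. Slc26a3, the chloride exchanger of surface colonocytes, differed by -1.67 (limma, SE 0.0781, adjusted p = 2.65e-06). In the crypt base list 2 of 10 rose and 3 fell against control tamoxifen, beside 12.9% and 11.8% of all genes.

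Smooth muscle markers were lower in mutant tamoxifen, 12 of 12 by limma, with means of 11.56 to 11.73 against 12.13 to 12.25 in control tamoxifen and 11.95 to 12.25 in mutant NaCl. Neutrophil markers were higher, 10 of 11, with means of 6.64 to 7.16 against 6.04 to 6.20 and 6.05 to 6.12. Fibroblast markers rose in 1 of 8 cases and fell in 0 against control tamoxifen, and against mutant NaCl 5 rose and 2 fell (median 0.39), with means of 10.93 to 11 in mutant tamoxifen, 10.77 to 10.93 in control tamoxifen and 10.53 to 10.94 in mutant NaCl. Macrophage markers rose in 1 of 9 cases and fell in 3 against control tamoxifen, and in 1 and 0 against mutant NaCl, with means of 9.60 to 9.79, 9.74 to 10.08 and 9.66 to 9.85. T cell markers passed in 0 of 8 cases in either comparison. Against control tamoxifen 12.9% of all genes rose and 11.8% fell, so the fibroblast and macrophage genes that rose do not stand out. Against mutant NaCl 12.5% of all genes rose and 10.7% fell. The part of these lists in the result was not tested. Squamous markers passed in 0 of 12 cases but varied widely. Control tamoxifen array 1, the array lowest in mitosis genes, was also the lowest in these (6.61, against 7.82 to 10.31 in the other control arrays). Control tamoxifen array 3, the control array highest in mitosis genes, was the next lowest of all arrays in squamous markers (7.82). B cell and germinal centre markers passed in 0 of 9 cases. Mutant NaCl array 4, the highest of its group in mitosis genes, had the lowest B cell mean of that group (7.18, against 8.07 to 9.16).

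**Figure D4:**
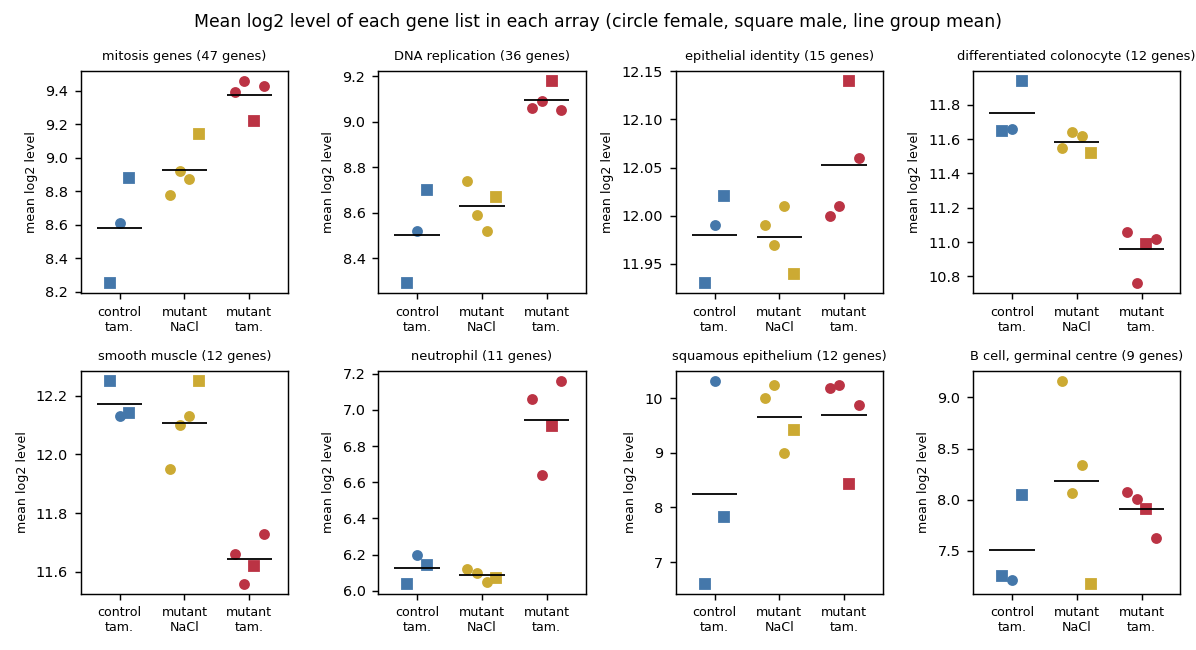
Mean log2 level of 8 gene lists in each array; circles are females, squares males, and lines group means. Each panel has its own vertical axis. Mitosis genes lie at 9.22 to 9.46 in the mutant tamoxifen arrays and at 8.25 to 9.14 in all others, DNA replication and neutrophil genes are also highest there, smooth muscle and differentiated colonocyte genes lowest, and epithelial identity genes span only 11.93 to 12.14.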

How the data were processed

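RNA from the rectal mucosa of 11 mice was measured on Affymetrix Mouse Gene 1.0 ST arrays. The deposited log2 values were made by the authors with RMA in Expression Console version 1.1 from images read with Command Console version 2.0, per the labels and the series design text. Partek appears in the submitters' processing notes with no role. A genome build is not given in the sources used here. Of 35556 transcript clusters, 21797 had 1 symbol, 1613 several, and 12146 were not listed by the platform annotation. Symbols of 21774 matched a RefSeq table of GRCm38.p6 and 23 were kept as they were. The cluster with the highest mean was used for the 999 genes with several, which gave 19946 genes with no filter on dim genes.

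A linear model per gene (limma version 3.58.1, R version 4.3.3) held 3 groups and a sex term, with a variance prior with a trend, two-sided tests and Benjamini-Hochberg adjustment over all genes. The steps were tested on simulated data. The number of arrays limits the precision, and replicate numbers only name an array. The members, role lists, related lists and markers were chosen with earlier results of these data known. Every measured member is named with its difference between mutant and control tamoxifen. Values in every array are given for the member with the smallest and the largest p of each role, and for others singled out after their values were seen (Bub1, Mki67, Top2a and some related genes). Related genes named are the 3 with the smallest p of a list and those past the threshold against most of their list. Slc26a3 was named as the marker with the smallest p of its list. Alternatives changed the sex term, arrays, filter, scaling, variance prior, weights and promoter window. Motifs were searched in RefSeq promoters of GRCm38.p6. A further motif sequence is not reported here.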

Additional observations from a re-analysis of the deposited data

Results flagged for a closer look

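Within the 2 mutant groups of 4 arrays, 96 sets of values (47 members and their mean, in each group) were searched for an array that stands far from the others, by the gap to its nearest neighbour over the range of the group. In 7 sets the ratio was above Dixon's 95% critical value for 4 samples, and chance alone flags about 1 in 20 sets. Members of one list are not independent, so these are not 7 separate events.

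Mutant tamoxifen array 3 was the low array in 4 of them. Cdca8 stood at 8.78 there and at 9.04 to 9.05 in the other arrays of the group (ratio 0.947), Kif20a at 9.06 against 9.31 to 9.33 (0.926), Kif4 at 8.41 against 8.59 to 8.61 (0.895) and Plk1 at 10.46 against 10.69 to 10.73 (0.833). In all 4 genes it was still above every control tamoxifen array.

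Mutant NaCl array 4 was the high array in 3. Smc2 stood at 9.06 there and at 8.74 to 8.78 in the other arrays of the group (ratio 0.896), Ncapg at 8.41 against 7.98 to 8.04 (0.855) and Spc25 at 8.21 against 7.94 to 7.98 (0.855).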

How the results depend on the processing

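Under 23 alternative settings, mutant against control tamoxifen gave 38 to 46 members higher when single arrays were left out and 41 to 46 otherwise, never one lower, and median differences of 0.65 to 0.94 and 0.71 to 0.84. Mutant tamoxifen against mutant NaCl gave 16 to 40 without single arrays (20 without mutant tamoxifen array 1, 19 without array 2 or 4, 16 without mutant NaCl array 1, 18 without array 2 or 3) and 23 to 46 otherwise, 46 with females alone and 23 with arrays centred on epithelial genes. In females alone the control group is 1 array, assumed to vary like the others. Mutant NaCl against control tamoxifen gave 0 calls in every setting, with medians of 0.19 to 0.52 and 0.25 to 0.43. Small differences changed sign in a few settings. Pttg1 was at -0.02 for mutant tamoxifen minus mutant NaCl with arrays centred on epithelial genes. For mutant NaCl minus control tamoxifen, Incenp was at -0.01 with females alone and without mutant NaCl replicate 4, Spc24 at -0.01 without control tamoxifen replicate 1 and 0.00 without mutant NaCl replicate 2, and Spc25 at 0.00 without mutant NaCl replicate 4. With single arrays left out, these reached at most 0.20, 0.09 and 0.26. The cause was not tested. Leaving out the lowest 50% of genes removed 5 members from the fit. The share of promoters with TTTGAA was 26.8% in 100 bases and 78.0% in the whole 300, which takes in bases after the start site. No paired analysis was made, because each mouse gave 1 array and the labels link no mice between groups.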
